A study of Mus musculus with 7 samples.

Results

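The genes of the proximal insulin signalling pathway were described in 7 mouse tissues. The set holds 10 genes chosen by name for their place in the pathway, of 50160 names in the deposited table: the receptors Insr and Igf1r, the receptor substrates Irs1 and Irs2, the phosphoinositide 3-kinase (PI3K) subunits Pik3r1 and Pik3ca, the kinases Akt1 and Akt2, and the transcription factors Foxo1 and Foxo3. Strand-specific RNA-Seq libraries of ribosomal RNA-depleted total RNA covered 3 adipose depots, namely visceral (VAT), subcutaneous (SCAT) and interscapular brown fat (BAT), together with skeletal muscle, liver, kidney and cortex. All tissues came from C57BL/6 mice (C57BL/6N in the study's text) of genotype wt, 36 weeks old, on the diet labelled NCD. The labels name no treatment and do not say whether the tissues came from the same animal or from pooled animals. Each tissue has 1 library, so no difference between tissues has a replicate check and no p-value was computed. Levels are FPKM, fragments scaled for transcript length and for library size, which puts genes of different length on 1 scale, with a limit for Irs1, Irs2, Foxo1 and Foxo3 that is given with their values. Without fragment counts in the table, sequencing depth was unknown.

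Insulin binds the insulin receptor, a tyrosine kinase of the cell surface, which phosphorylates the IRS proteins. These recruit PI3K, whose lipid product brings AKT to the membrane, where it is activated. AKT then phosphorylates many proteins, among them the FOXO factors, which leave the nucleus and stop activating their target genes. The pathway lowers glucose output in liver and drives glucose uptake in muscle and fat, and the related receptor for insulin-like growth factor 1 (IGF1) uses the same substrates.

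The RefSeq promoter sequences of the substrate genes are shown first, because they share an arrangement of motifs that few other promoters held. A window of 250 bases before an annotated start (GRCm38.p6) was at hand for 9 of the 10 genes. The search covered CACGTG, the E-box bound by basic helix-loop-helix factors, and TGTTTTG, the core of the insulin response sequence known as a FOXO site, on both strands. In the windows below, matches to these motifs are in capitals, and each sequence reads 5′ to 3′ towards the start on the gene's own strand, which is the minus strand for all 3. Irs4, a further member of the IRS family and a gene of the wider pathway list, is shown beside the 2 substrates of the set.
Irs1, chr1:82291440-82291689: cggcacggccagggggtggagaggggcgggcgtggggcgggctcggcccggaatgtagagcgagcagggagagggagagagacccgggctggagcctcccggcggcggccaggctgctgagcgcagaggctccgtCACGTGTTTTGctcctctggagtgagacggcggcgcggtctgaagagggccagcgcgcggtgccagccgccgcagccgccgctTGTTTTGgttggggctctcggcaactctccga
Irs2, chr8:11008930-11009179: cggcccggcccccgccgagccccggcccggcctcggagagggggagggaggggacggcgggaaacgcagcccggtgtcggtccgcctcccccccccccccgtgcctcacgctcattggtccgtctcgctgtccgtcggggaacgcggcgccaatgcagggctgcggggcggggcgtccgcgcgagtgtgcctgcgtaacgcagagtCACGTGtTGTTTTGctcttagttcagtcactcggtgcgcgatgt
Irs4, chrX:141725218-141725467: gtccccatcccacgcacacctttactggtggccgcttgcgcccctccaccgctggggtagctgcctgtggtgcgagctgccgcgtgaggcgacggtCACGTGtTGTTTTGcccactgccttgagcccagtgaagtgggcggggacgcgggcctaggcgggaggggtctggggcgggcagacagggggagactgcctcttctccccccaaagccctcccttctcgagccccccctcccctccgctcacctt

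The Irs1 window held an E-box starting 115 bases before the start, which shared 2 bases with an insulin response core, and a further core at 32 bases. In Irs2 the E-box lay at 44 bases and the core at 37 bases, with 1 base between them, and Irs4 had the same spacing, with the E-box at 154 bases and the core at 147. Of all 32851 windows, 6.02% held CACGTG and 5.56% held TGTTTTG. The motifs overlapped or lay at most 2 bases apart in 7 windows (0.0213%), those of Irs1, Irs2, Irs4, Klf11, Pcbp1, Pyroxd1 and 1700019P21Rik. The window of Irs3, the remaining IRS gene, held neither motif. GTAAACA, a further FOXO core that was searched for, was in 3.17% of all windows but in none of the IRS windows. Distances are from the RefSeq start. For Irs1, Irs2, Igf1r and Pik3ca the bases after that start were not found in a GENCODE transcript of the gene, so the annotations differ in where these genes begin. The pairing of motifs was looked for after the sequences had been read, and a match of letters is a description, not a binding site.

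The window of Igf1r and the window before the first start of Akt2 are given for contrast, with the GC box GGGCGG, searched on both strands, in capitals. Both genes lie on the plus strand.
Igf1r, chr7:67952007-67952256: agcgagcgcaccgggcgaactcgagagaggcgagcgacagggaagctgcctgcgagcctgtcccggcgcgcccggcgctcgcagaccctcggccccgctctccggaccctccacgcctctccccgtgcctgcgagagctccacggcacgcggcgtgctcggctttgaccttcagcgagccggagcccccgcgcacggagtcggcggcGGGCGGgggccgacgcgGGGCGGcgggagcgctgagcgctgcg
Akt2, chr7:27591302-27591551: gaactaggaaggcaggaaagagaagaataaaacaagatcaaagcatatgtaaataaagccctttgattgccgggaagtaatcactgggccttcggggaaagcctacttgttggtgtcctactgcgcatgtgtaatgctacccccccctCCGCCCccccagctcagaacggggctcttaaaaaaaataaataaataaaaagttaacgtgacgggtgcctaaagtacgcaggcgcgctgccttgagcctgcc

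The Igf1r window held 42 CG dinucleotides and 2 GC boxes, and the Akt2 window 10 CG dinucleotides and 1 GC box. Of all windows, 32.7% held a GC box. Taking for each gene its window with the most CG, 7 of the 9 genes had 20 or more, with a median of 30. Among 11514 protein-coding genes that reached 1 FPKM, 34.6% had 20 or more, with a median of 15. The 9 genes were not held to that minimum and include Irs2 (34 CG) and Foxo1 (20 CG), which did not reach it. Akt2 and Pik3ca, with 10 and 19 CG, were the genes under that limit.

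The libraries carried the defining genes of their tissues, with other cell types in the VAT and SCAT libraries. All measured markers of liver, kidney and cortex, and the muscle marker Mylpf, were highest in their own tissue and at least 4-fold above every other. The brown adipocyte markers were all highest in BAT, with Ucp1 at 6552 FPKM. In SCAT all 4 lymphocyte markers (summed 107 FPKM against at most 3.25 elsewhere) and all 4 pancreatic acinar markers (summed 92.9 against at most 8.82) were highest. In VAT 3 of 4 epididymis markers were highest (summed 2639 FPKM against at most 1.99), while the fourth, Lcn9, was listed at 0 in every library. The summed endothelial markers ran from 2.78 FPKM in cortex to 53.3 in BAT, the macrophage markers from 8.64 in kidney to 49.5 in VAT, and 3 of 4 epithelial and mesothelial markers were highest in VAT. Mylpf reached 81.9 FPKM in BAT against 5595 in muscle. The part of these cells in the levels below was not tested, and in whole tissue a smaller number of cells of a type and less RNA per cell cannot be told apart. Scaling the libraries by the median ratio of expressed genes would move log2 values by 0.39 in SCAT, 0.28 in VAT, 0.19 in cortex, -0.18 in BAT and -0.25 in muscle, and by less than 0.03 in liver and kidney.

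**Figure D1:**
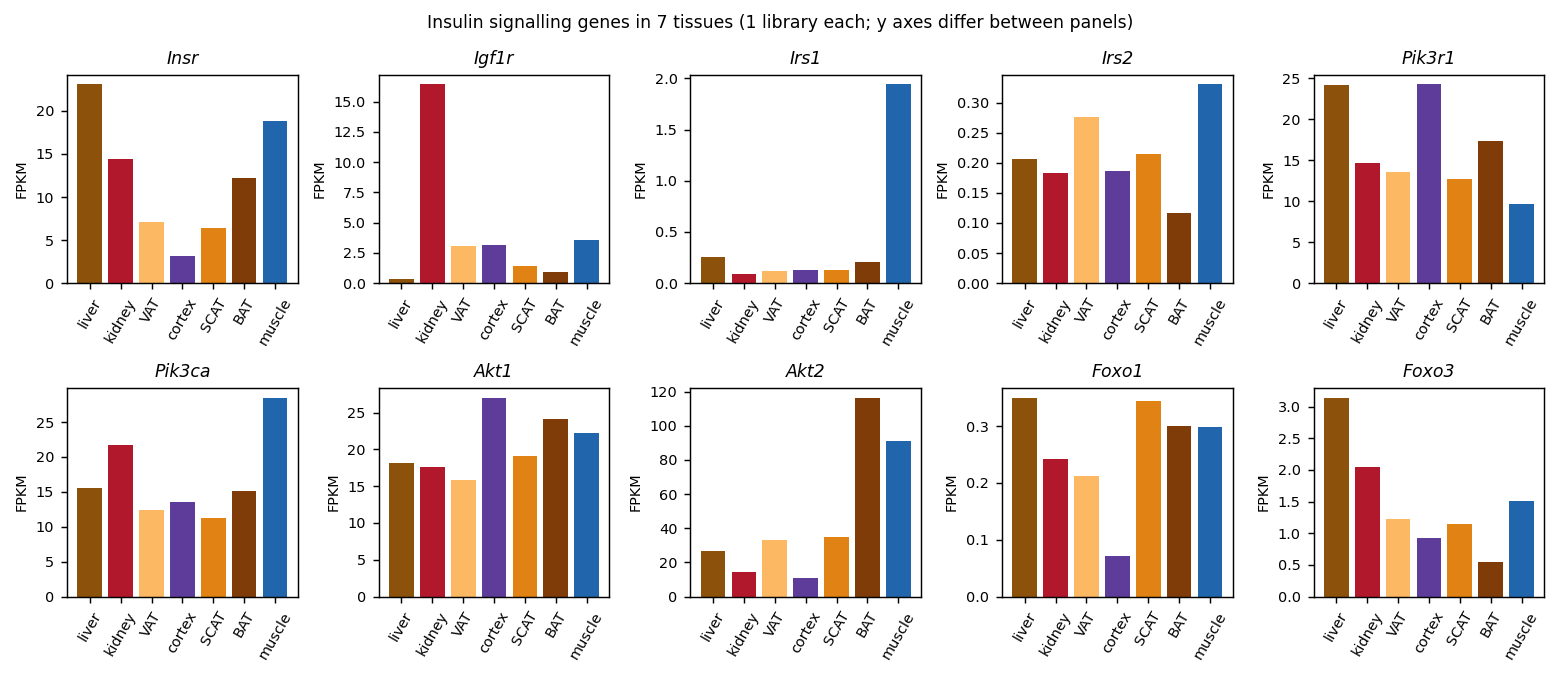
FPKM of the 10 genes in each tissue, 1 bar per library, with a separate linear axis from 0 in each panel. Insr and Foxo3 were highest in liver, Igf1r in kidney, Irs1 and Pik3ca in muscle and Akt2 in BAT, while the bars of Akt1 differed by at most 1.71-fold.

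Insr (chromosome 8, 3122061 to 3279617, minus strand, GRCm38), the insulin receptor, was highest in liver and lowest in cortex. It had 23.1 FPKM in liver, 18.8 in muscle, 14.5 in kidney, 12.2 in BAT, 7.16 in VAT, 6.44 in SCAT and 3.21 in cortex. The levels fell in small steps, of 1.11-fold to 2.01-fold between neighbours in this order, and the whole range was 7.20-fold. The white adipose depots VAT and SCAT stood below BAT and close to each other (1.11-fold apart). On the opposite strand of the same region, the locus Vmn2r-ps88 held 27.0% to 42.9% of the Insr level (7.54 FPKM in liver) and ranked the 7 tissues in the same order, and the locus Gm16180 held at most 4.27%.

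Igf1r (chromosome 7, 67952741 to 68233668, plus strand), the IGF1 receptor, had the widest range of the set. It had 16.4 FPKM in kidney, 3.61 in muscle, 3.17 in cortex, 3.03 in VAT, 1.42 in SCAT, 0.959 in BAT and 0.387 in liver. Kidney stood 4.55-fold above muscle (log2 difference 2.16 on the log2(FPKM + 0.1) scale) and 42.4-fold above liver, while muscle was 1.14-fold above cortex and cortex 1.05-fold above VAT.

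The 2 receptors therefore made up different shares of their sum from tissue to tissue. Insr was 98.3% of the summed FPKM in liver, 92.7% in BAT, 83.9% in muscle, 82.0% in SCAT and 70.2% in VAT. In cortex the 2 receptors were level, with Insr at 50.3%, and in kidney Insr was 46.8%. Liver, the tissue with the most Insr, was also the tissue with the least Igf1r. The 2 further receptor genes of the pathway list were both highest in kidney. They were Insrr, an orphan relative of the insulin receptor, at 1.80 FPKM, and Igf2r, which clears IGF2 and carries lysosomal enzymes, at 22.8 FPKM.

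**Figure D2:**
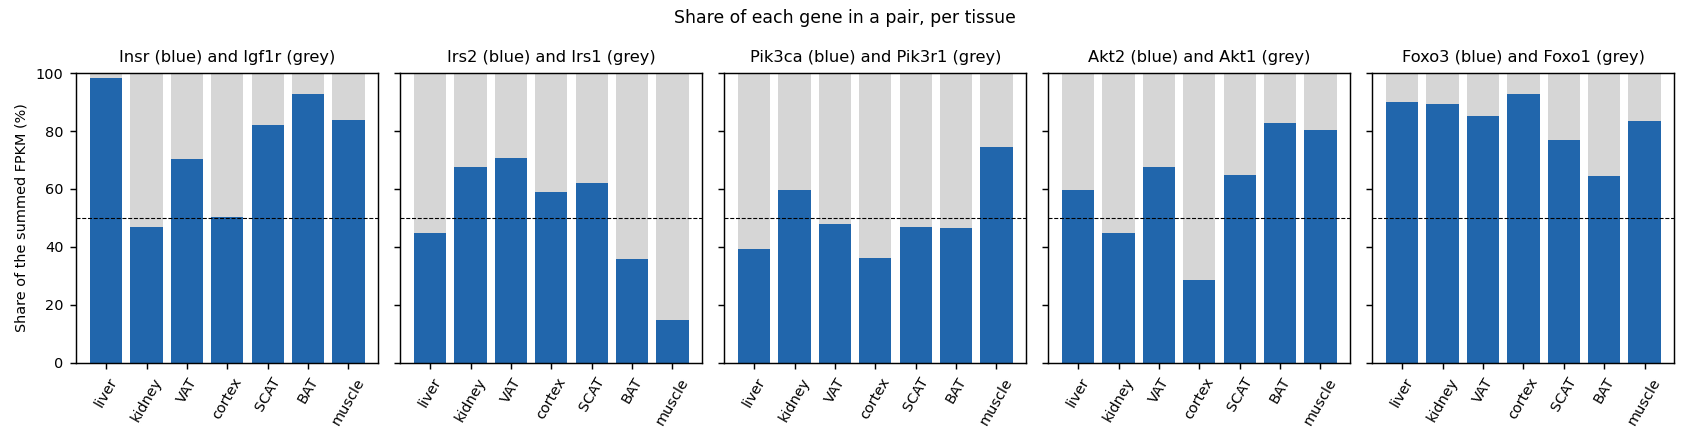
Share of each gene in the summed FPKM of 5 pairs, in percent, 1 bar per library, with the first gene of each title in blue, the second in grey and a dashed line at 50%. The share of Insr ran from 46.8% in kidney to 98.3% in liver, and the share of Akt2 from 28.5% in cortex to 82.8% in BAT.

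The receptor substrates were listed at very low levels. Irs1 (annotated on chromosome 1, 82233101 to 82291416, minus strand) had 1.94 FPKM in muscle, 0.254 in liver, 0.209 in BAT, 0.131 in SCAT, 0.130 in cortex, 0.115 in VAT and 0.0884 in kidney. The table gives its locus the bounds of a merged region of 355.4 kb, from 82231403 to 82586849. Muscle alone passed 1 FPKM, 7.64-fold above liver (log2 difference 2.53 on the same scale), and the other 6 libraries lay between 0.0884 and 0.254 FPKM.

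Irs2 (annotated on chromosome 8, 10984681 to 11008458, minus strand, in a merged region of 69.9 kb from 10984681 to 11054541) passed 1 FPKM nowhere. It had 0.330 FPKM in muscle, 0.275 in VAT, 0.214 in SCAT, 0.206 in liver, 0.187 in cortex, 0.183 in kidney and 0.117 in BAT. The whole range was 2.81-fold, and with median ratio scaling VAT, not muscle, was the highest tissue. Of the listed values, Irs2 was 14.5% of the summed Irs1 and Irs2 in muscle, 35.9% in BAT and 44.8% in liver, and between 59.0% and 70.6% in cortex, SCAT, kidney and VAT.

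The table also places loci on the opposite strand of the same merged regions. The strand of a locus was taken from its place in the table, by which 75.3% of 61765 locus and name combinations lay on the annotated strand. Opposite Irs1, the locus named Gm9747 and Rhbdd1 had 76.1 FPKM in muscle, 27.2 in liver, 20.3 in BAT, 16.04 in kidney, 10.02 in VAT, 9.85 in SCAT and 7.11 in cortex, 39.2-fold to 181-fold the level of Irs1. Rhbdd1 is itself a protein-coding gene, so this level cannot be assigned to the Irs1 region alone. A further opposite locus, Gm19552, had at most 5.04% of the Irs1 level. Opposite Irs2, the locus 9530052E02Rik had 52.7% to 157% of the Irs2 level and was the higher of the 2 in kidney and SCAT.

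Among protein-coding genes, low listed levels were more frequent where exons were few. Other differences between such genes, among them the tissues where they are active, were not tested. Irs1 and Irs2 have 2 exons in their longest annotated transcript, Foxo1 3 and Foxo3 4, and the other 6 genes 14 to 21. Of 6332 protein-coding genes with 1 to 3 exons, 37.2% reached 1 FPKM at their annotated-strand locus, against 68.0% of 7951 genes with 4 to 9 exons and 85.7% of 7008 genes with 10 or more. Where a locus of the same name also lay on the opposite strand, that locus was the higher of the 2 for 72.4%, 46.6% and 28.2% of the genes in these classes. Irs1, Irs2 and Foxo1 had no opposite locus of their own name, so these shares leave them out. Whether fragments of Irs1, Irs2, Foxo1 and Foxo3 were counted at the opposite loci was not tested, and their FPKM is given as deposited, not as a measure of how much mRNA these genes made.

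**Figure D3:**
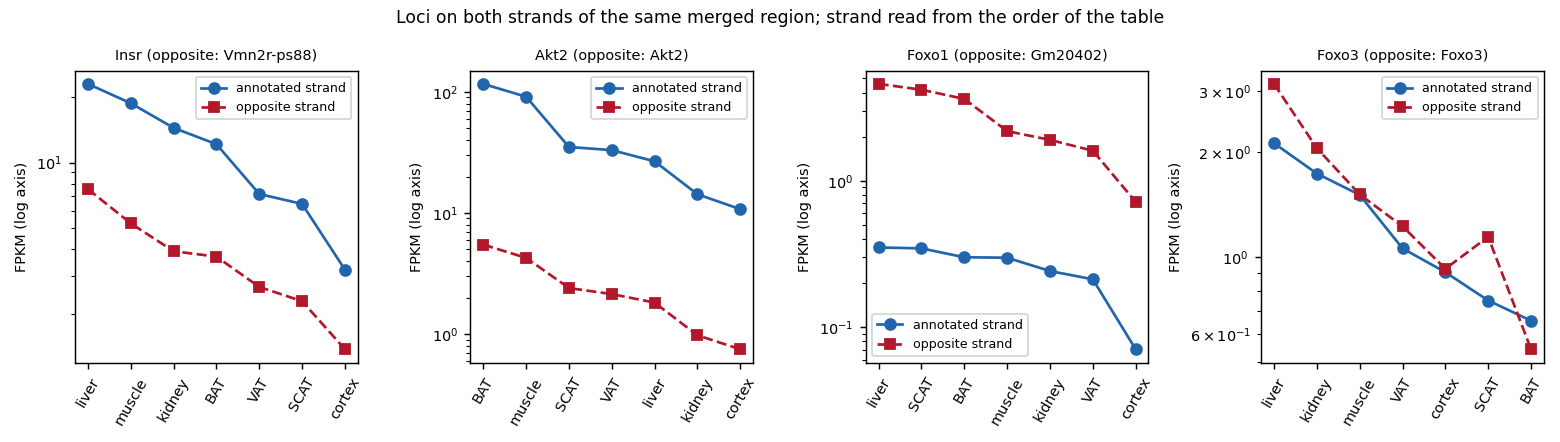
FPKM on a log axis at loci on the annotated strand (blue circles) and on the opposite strand of the same merged region (red squares), with tissues in falling order of the annotated-strand locus. The opposite locus lay below Insr and Akt2 in every tissue, above Foxo1 in every tissue, and above Foxo3 in every tissue but BAT.

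The PI3K subunits were expressed in every tissue over a narrow range. Pik3r1 (chromosome 13, 101678478 to 101768247, minus strand), the regulatory subunit p85α that docks on IRS proteins, had 24.2 FPKM in both cortex and liver, 17.3 in BAT, 14.7 in kidney, 13.6 in VAT, 12.8 in SCAT and 9.67 in muscle. Cortex and liver could not be separated (1.00-fold), and muscle was lowest. A second locus named Pik3r1 on the opposite strand had 1.76 to 3.78 FPKM, 8.77% to 18.7% of the main locus.

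Pik3ca (chromosome 3, 32397031 to 32492231, plus strand), the catalytic subunit p110α, had 28.5 FPKM in muscle, 21.7 in kidney, 15.5 in liver, 15.1 in BAT, 13.6 in cortex, 12.4 in VAT and 11.3 in SCAT. Muscle was highest and all 3 adipose libraries were between 11.3 and 15.1. The locus Kcnmb3 on the opposite strand held 11.4% to 20.8% of the Pik3ca level. Muscle was the highest tissue for Pik3ca and the lowest for Pik3r1. Pik3ca was 74.7% of their sum in muscle and 59.7% in kidney, between 46.6% and 47.7% in the adipose libraries, 39.1% in liver and 36.0% in cortex.

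The catalytic subunits as a group changed makeup between tissues. Pik3ca was 65.99% to 82.0% of the summed catalytic FPKM of Pik3ca, Pik3cb, Pik3cd and Pik3cg in liver, kidney, VAT, BAT and muscle, but 38.3% in SCAT and 28.5% in cortex. There Pik3cd, best known from leukocytes, made up 47.7% (14.0 FPKM) and 68.3% (32.6 FPKM). SCAT was also the library with the lymphocyte markers, while in cortex these summed to 0.222 FPKM. Among the regulatory subunits, Pik3r1 was 42.4% in cortex and 58.7% to 81.4% elsewhere, with Pik3r2 (19.3 FPKM) and Pik3r3 (13.5 FPKM) both highest in cortex.

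Akt1 and Akt2, paralogous kinases, differed in how evenly they were expressed. Akt1 (chromosome 12, 112653821 to 112674884, minus strand) had 27.0 FPKM in cortex, 24.1 in BAT, 22.3 in muscle, 19.0 in SCAT, 18.1 in liver, 17.6 in kidney and 15.8 in VAT. Its range of 1.71-fold was the narrowest of the set, and no neighbouring tissues were more than 1.17-fold apart.

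Akt2 (chromosome 7, 27591277 to 27643965, plus strand), the isoform best known for insulin-stimulated glucose uptake, had 116 FPKM in BAT, 91.2 in muscle, 35.1 in SCAT, 33.0 in VAT, 26.7 in liver, 14.3 in kidney and 10.7 in cortex. BAT and muscle stood apart from the rest, with muscle 2.601-fold above SCAT (76.6 against 45.9 FPKM with median ratio scaling), and the whole range was 10.8-fold. All 3 adipose libraries and muscle lay above liver, kidney and cortex, although VAT was only 1.24-fold above liver. The 4 adipocyte markers summed to 10040.2 FPKM in BAT, 5627 in VAT, 3041 in SCAT and 413 in muscle, with Plin1 and Fabp4 highest in BAT and Adipoq and Lep highest in VAT. A second Akt2 locus on the opposite strand held 4.67% to 6.97% of the main level and ranked the 7 tissues in the same order.

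Akt2 exceeded Akt1 in 5 tissues. It was 82.8% of their sum in BAT, 80.4% in muscle, 67.6% in VAT, 64.8% in SCAT and 59.6% in liver. In kidney it was 44.8% and in cortex 28.5%. The summed Akt1 and Akt2 level was 141 FPKM in BAT, 113.4 in muscle, 54.1 in SCAT, 48.9 in VAT, 44.8 in liver, 37.7 in cortex and 31.9 in kidney. This order differed from that of Akt2 only in cortex and kidney, which changed places.

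The FOXO factors were listed at low levels. Foxo1 (annotated on chromosome 3, 52268336 to 52353221, plus strand), the factor best known for gluconeogenic genes in liver, had 0.350 FPKM in liver, 0.345 in SCAT, 0.2998 in BAT, 0.298 in muscle, 0.241 in kidney, 0.212 in VAT and 0.0705 in cortex. Only cortex stood apart, 3.01-fold below VAT, and liver and SCAT were 1.01-fold apart and changed places under median ratio scaling. The opposite-strand locus Gm20402 had 4.59 FPKM in liver, 4.19 in SCAT, 3.62 in BAT, 2.18 in muscle, 1.90 in kidney, 1.60 in VAT and 0.718 in cortex. It was 7.33-fold to 13.1-fold above Foxo1 and ranked all 7 tissues in the same order.

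Foxo3, which drives atrophy and stress genes in muscle, had a locus on each strand (chromosome 10, 42177250 to 42277809). The higher one, used here, lay on the plus strand, opposite to the annotation, with 3.14 FPKM in liver, 2.05 in kidney, 1.51 in muscle, 1.23 in VAT, 1.14 in SCAT, 0.925 in cortex and 0.544 in BAT. The locus on the annotated minus strand had 2.12 FPKM in liver, 1.74 in kidney, 1.51 in muscle, 1.06 in VAT, 0.905 in cortex, 0.750 in SCAT and 0.657 in BAT. Both put liver first and BAT last, and they differed in the order of SCAT and cortex. Foxo3 was 64.5% (BAT) to 92.9% (cortex) of the summed Foxo3 and Foxo1, with Foxo3 taken opposite to its annotated strand and Foxo1 on its own. Set against Gm20402, the locus opposite Foxo1, this Foxo3 locus was lower in 5 of the 7 tissues and higher in kidney and cortex.

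Only 8 of the 10 genes reached 1 FPKM in any library, Irs2 and Foxo1 being below it throughout and Irs1 passing through muscle alone. A gene was counted as enriched when log2(FPKM + 0.1) in its highest tissue was at least 2, or 4-fold, above every other tissue. Igf1r in kidney and Irs1 in muscle met this, 2 of 8, against 23% of the 19087 names at 1 FPKM or more. With a pseudocount of 1 neither did, at log2 differences of 1.92 and 1.23. The same 2 genes met a 2-fold limit, met by 40.3% of all names. None of the 8 had all 3 adipose libraries above the other 4 (3.11% of all names) or below them (3.46%). Akt2 alone had the adipose libraries and muscle above liver, kidney and cortex, a pattern held by 4.66% of all names and chosen after its values were seen.

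The highest tissue was liver for Insr and Foxo3 (16.3% of all names), cortex for Pik3r1 and Akt1 (20.7%; liver for Pik3r1 with its loci summed), muscle for Irs1 and Pik3ca (23.3%), kidney for Igf1r (10.4%) and BAT for Akt2 (14.1%). It was VAT or SCAT for none (5.28% and 9.92%). The median log2 range over the 7 tissues was 2.57 for the 8 genes, 1.87 for all 10 and 3.09 for all names. Of the 8, 5 lay under that background, Akt1, Pik3r1, Pik3ca, Foxo3 and Insr with log2 ranges of 0.77, 1.32, 1.33, 2.33 and 2.81, and 3 above it, Igf1r, Irs1 and Akt2 with 5.08, 3.44 and 3.43.

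The wider pathway was read from 8 lists of 86 genes, 76 of them outside the set. Of these 76, 72 reached 1 FPKM, 6 (8.33%) were at least 4-fold above every other tissue and 25 (34.7%) at least 2-fold, beside 23% and 40.3% of all names, with a median log2 range of 3.11. Among substrates and adaptors the widest ranges were those of Sh2b2, Shc1 and Irs1. Sh2b2, the adaptor APS that binds the insulin receptor, had 11.6 FPKM in BAT and at most 1.55 elsewhere. Shc1, the adaptor to the RAS branch, had 29.8 FPKM in BAT and 2.30 in cortex.

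**Figure D4:**
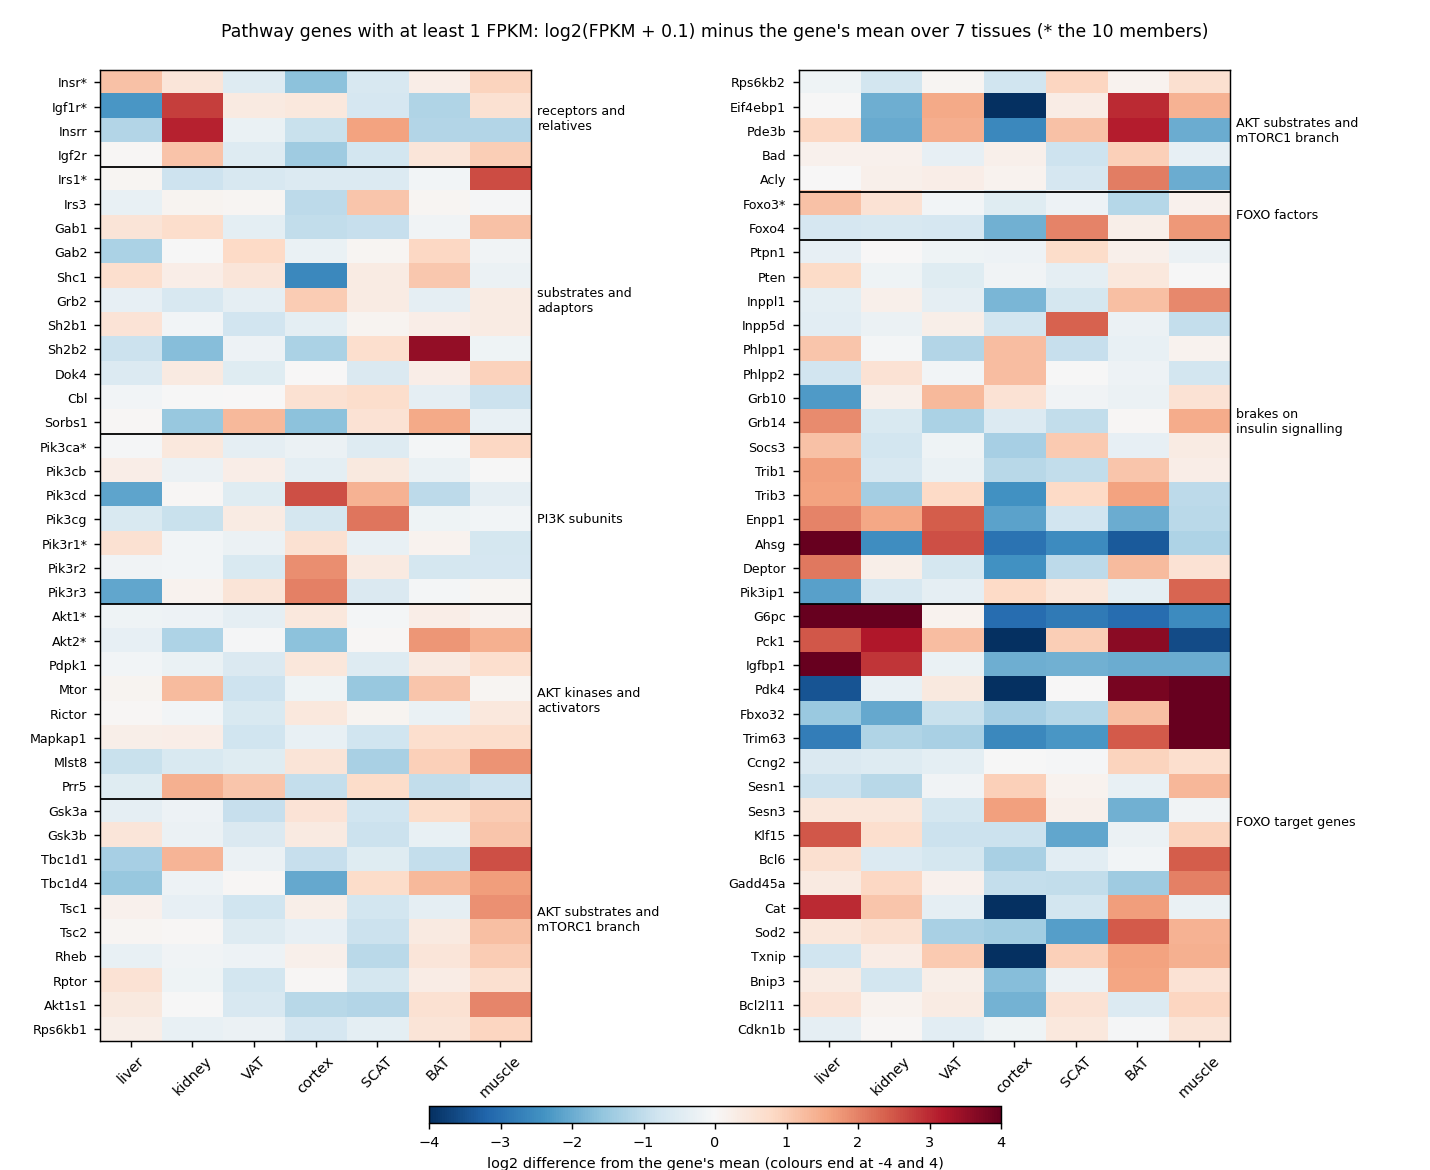
Colour gives log2(FPKM + 0.1) minus the mean of the gene over the 7 tissues for the pathway genes with at least 1 FPKM, grouped by list, with an asterisk at genes of the set. Pik3cd stands out in cortex, Sh2b2 in BAT, and Fbxo32 and Trim63 in muscle.

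Below AKT, the list of substrates and the mTORC1 branch leaned to muscle and BAT. Of its 15 genes, 10 were highest in muscle, 4 in BAT and 1 in SCAT, and 9, 4 and 1 with median ratio scaling, which moved 1 to liver, beside 23.3%, 14.1% and 9.92% of all names. None was 4-fold above every other tissue, beside 23% of all names. Tbc1d4, the AKT substrate AS160 that controls GLUT4 traffic, had 11.2 FPKM in muscle, 8.47 in BAT, 5.77 in SCAT and 3.52 in VAT. It had 2.91 in kidney, 1.11 in liver and 0.754 in cortex. As for Akt2, muscle and the adipose libraries lay above the others, a pattern held by 4.66% of all names. Tbc1d1, of the same list, did not share it, with 27.1 FPKM in muscle, 11.6 in kidney and 2.23 in BAT. The widest ranges were those of Eif4ebp1, Pde3b and Acly, all highest in BAT. Eif4ebp1, the translation repressor 4E-BP1, had 78.6 FPKM there, Pde3b, the phosphodiesterase by which insulin restrains lipolysis, 134.1, and Acly, which makes cytosolic acetyl-CoA, 80.8.

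Among 8 AKT kinases and activators at 1 FPKM, none was 2-fold above every other tissue, beside 40.3% of all names. Of these, 4 were highest in muscle, 2 in kidney and 1 each in cortex and BAT, but 1, 2, 3 and 2 with median ratio scaling, beside 23.3%, 10.4%, 20.7% and 14.1% of all names. The widest log2 ranges were those of Akt2, Mlst8 and Mtor. Mlst8, a scaffold shared by both mTOR complexes, had 20.9 FPKM in muscle and 2.37 in SCAT, and Mtor, their kinase, 20.96 in kidney, 18.8 in BAT and 2.94 in SCAT. In the PI3K list no gene was 4-fold enriched and 4 of 7 were highest in cortex, beside 23% and 20.7% of all names. Pik3cg, a leukocyte subunit, had 1.69 FPKM in SCAT and at most 0.414 elsewhere. This was 4.09-fold in FPKM, but a log2 difference of 1.80 with the pseudocount of 0.1, under the limit.

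Genes that brake the pathway were most often highest in liver, 7 of the 15 at 1 FPKM (6 with median ratio scaling), beside a background of 16.3%. Ahsg, the secreted glycoprotein fetuin-A, had 1897 FPKM in liver and 11.1 in VAT. The liver marker Apoa1 likewise reached 17.7 FPKM in VAT, against at most 1.01 in the other tissues outside liver. The other measured liver markers, Ttr and Cyp2e1, did not have VAT next after liver. Ttr was higher in cortex and kidney than in VAT, and Cyp2e1 was higher in kidney. Both were higher in VAT than in SCAT, BAT and muscle. The source of these levels in VAT was not tested. Deptor, which inhibits mTOR, had 21.3 FPKM in liver, and Enpp1, a membrane phosphodiesterase that binds the receptor, 22.1 in VAT and 16.2 in liver. Inpp5d, the blood-cell phosphatase SHIP1, was 4-fold enriched in SCAT, with 11.96 FPKM against 2.65 in VAT, in the library with the lymphocyte markers.

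FOXO target genes, a list that includes Insr and Irs2, were mostly highest in muscle, liver or BAT. Of the 19 at 1 FPKM, 8 were highest in muscle, 5 in liver, 5 in BAT and 1 in cortex (5, 5, 5 and 2 with median ratio scaling, and 2 in SCAT), beside 23.3%, 16.3%, 14.1% and 20.7% of all names. Fbxo32 and Trim63, the muscle ubiquitin ligases atrogin-1 and MuRF1, had 84.3 and 145 FPKM in muscle and at most 3.66 and 3.64 elsewhere. Igfbp1, a secreted IGF-binding protein, had 14.9 FPKM in liver and 2.78 in kidney. Pck1, of gluconeogenesis and glyceroneogenesis, had 1226 FPKM in BAT, 930.0 in kidney and 568.04 in liver, and Pdk4, which restrains glucose oxidation, 1151 in muscle and 796 in BAT. Of the other FOXO genes, Foxo4 had 6.41 FPKM in SCAT and 5.33 in muscle, above the listed values of Foxo1 and Foxo3 in both tissues.

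For each gene of the set, the protein-coding genes with the most similar profile were found by the root mean square difference of log2(FPKM + 0.1), centred on each gene's mean over the 7 tissues. The unusual profiles had few neighbours. Within a difference of 0.5 lay 6 genes for Igf1r and 16 for Akt2, against 136 for Irs1, 140 for Foxo3, 322 for Insr and 1004 to 2617 for the others. Nearest to Igf1r were Efhd1 (0.33), Nhs (0.40) and Foxc1 (0.42), and nearest to Akt2 were Kcnj8 (0.29), Exoc8 (0.42) and Fitm2 (0.42). Insr was closest to Rdx (0.17), Trabd (0.18) and 0610030E20Rik (0.21), and Irs1 to Ptp4a2 (0.23), Ctdnep1 (0.23) and Lrig1 (0.26).

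Foxo3 was closest to Ptch1 (0.11), Gm35315 (0.22) and Ttll4 (0.31). For the other 5 genes, with log2 ranges of at most 1.40, the differences were small and the neighbours many. Foxo1 and Irs2 are among them on this scale, where the pseudocount narrows the range of such low values (4.96-fold for Foxo1 in FPKM). Their neighbours were Cdk9, Mcm8 and Cep120 for Akt1 (0.08 to 0.11), Tmf1, Rbl2 and Ets2 for Pik3ca (0.11 to 0.13), Mbtd1, Lcorl and Cdc40 for Pik3r1 (0.12 to 0.15), Mier1, Nop53 and Trim26 for Foxo1 (0.11 to 0.13) and Smad1, Fut11 and G2e3 for Irs2 (0.16). The profiles share their 7 libraries, and with 1 library per tissue the order of such neighbours has no error estimate.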

How the data were processed

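Per the submitters' processing notes, Bowtie2 2.2.9, STAR 2.6.0c, Cufflinks 2.2.1 and Cuffdiff were used with GRCm38 (mm10). According to the study's methods, ribosomal RNA reads were removed, the rest aligned, and transcripts assembled, merged and compared between tissues. The authors deposited 1 table with FPKM per locus and tissue for 94339 loci in 21 pairwise comparisons. Its columns of log2 fold change, test statistic, p-value, q-value and significance are the authors' comparisons and were not used. The library type and scaling given to Cuffdiff are not given in the sources used here.

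Each tissue had the same FPKM in all its comparisons. Loci marked FAIL (151) were left out, among them those of the markers Alb, Acta1, Ckm and Myh4, and zeros marked LOWDATA were taken as missing. Names were split at commas, and the locus with the highest maximum FPKM stood for a name. Loci of a merged region share its bounds, which were converted to count from 1. Gene models were those of GENCODE M21, which held 91.9% of the names. Folds between tissues are ratios of FPKM. Log2 differences and ranges used log2(FPKM + 0.1), which understates differences of low genes. Rules of size were used, with no test. As a check of the calculation, they were run on simulated even profiles with some genes raised in 1 tissue. That check held no levels as low as those of Irs1 outside muscle. Named are all 10 genes, the genes of each pathway list that were 4-fold enriched or had its 3 widest log2 ranges, the 3 nearest profiles of each gene, and marker genes. Igf2r, Pik3r2, Tbc1d4, Tbc1d1, Irs3, Irs4, the opposite-strand loci and the further genes with both promoter motifs were added after their values were seen. The pathway lists and their counts leave out 1 further gene, which is not reported here. The members and lists were chosen with earlier results of these data known. Alternatives covered the pseudocount, scaling, minimum FPKM, choice of locus, left-out libraries and likeness measure. Promoters are from RefSeq (GRCm38.p6), with 14 windows for the 9 genes, and the bases after the start lay in a GENCODE transcript of the gene, in the same direction, for 10 of them (not for the windows of Irs1, Irs2, Igf1r and Pik3ca) and in the opposite direction for 0. Python 3.11.15, pandas 2.3.3, NumPy 2.4.6 and matplotlib 3.10.9 were used.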

Additional observations from a re-analysis of the deposited data

How the results depend on the processing

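Of 166 alternative values computed, 149 stayed within the limits set for them. The count of genes 4-fold above every other tissue, 2 as reported, was 0 with a pseudocount of 1 and 1 (Igf1r) with a minimum of 5 FPKM, which also left 1 gene at the 2-fold limit. Under a pseudocount of 1 the log2 difference of Irs1 between muscle and liver was 1.23, and the median log2 range fell to 1.43. The count of genes with all adipose libraries below the others, 0 as reported, was 1 (Pik3ca) with median ratio scaling. Without VAT and SCAT, chosen after seeing the data, BAT alone was above the others for 1 gene (Akt2) and below them for 1 (Foxo3). With the FPKM of both loci summed, Foxo3 was 80.0% (BAT), 84.6% (SCAT), 91.0% (muscle), 91.5% (VAT), 93.8% (liver), 94.0% (kidney) and 96.3% (cortex) of Foxo3 and Foxo1, and with the annotated strand alone it was 68.5% in SCAT. Of the 30 genes named as most similar in profile, 7 were also among the 3 of highest Pearson correlation. No paired analysis was possible because no result came from a test, with a single library for each tissue. With depth unknown, levels under 1 FPKM have no error estimate. These are Irs1 outside muscle, Irs2 and Foxo1 everywhere, Igf1r in liver and BAT, and Foxo3 in cortex and BAT.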
